A study of Mus musculus with 8 samples.

Results

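The genes described here are 35 genes of the fibroblast extracellular matrix and of fibroblast identity: collagens, matrix glycoproteins and proteoglycans, crosslinking enzymes, receptors and transcription factors. They were chosen by gene symbol. All 35 were found among the 45706 gene rows of the count table, and all 35 passed the filter on low counts (at least 10 counts in at least 2 libraries) that 15049 genes passed. The study measured chromatin-associated RNA, the fraction that stays bound to chromatin when nuclei are extracted and that holds much of the newly made RNA, by sequencing in primary embryonic fibroblasts of C57BL/6 mice. Wild-type (WT) cells were set against crel-/-rela-/- cells (here KO), which lack the NF-kB subunits cRel and RelA. All cells were kept overnight in 0.5% BCS, so the 0 min libraries are from serum-starved cells without added TNF. The libraries at 15, 45 and 60 min had tumour necrosis factor (TNF), a cytokine that activates NF-kB, at 10 ng/ml. Each genotype and time has 1 library, which makes 8 in all, and nothing says whether they came from separate cultures or embryos. No cells were kept without TNF for 15, 45 or 60 min, so TNF and elapsed time cannot be told apart. The counts are exonic, and they do not separate nascent from finished transcripts.

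Fibroblasts build connective tissue by secreting collagens, which assemble into fibrils, networks and microfilaments, together with fibronectin, elastic fibre proteins and proteoglycans that bind growth factors and water. Lysyl oxidases crosslink the collagen and elastin chains, and matricellular proteins such as tenascin C and periostin tune how cells hold on to the matrix during development and repair. PDGF receptors and the transcription factors Twist1 and Prrx1 mark the mesenchymal cells that make this matrix.

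The libraries held 12359817 to 15607331 counts, of which 3 gene models took 58.92% to 70.62%, and the other genes shared 3948194 to 5644974 counts. The 35 genes took 5.757% (WT, 15 min) to 7.289% (KO, 45 min) of the latter. Exons of Rela held 324 to 704 counts in WT and 241 to 324 in KO, and those of Rel 151 to 805 and 308 to 633. Which part of each allele was removed is not stated, so these counts check nothing about the labels. For the labelled cell type, all 10 further fibroblast markers on the list (among them Vim, Thy1 and Ddr2) were detected, with a summed level of 1007 to 1210 CPM (counts scaled to a common library size) in WT and 870 to 1086 in KO. The similar sums hide differences between single markers. In edgeR's test of KO against WT, described below, 3 of the 10 were lower and 1 was higher (9.44% and 6.81% of all tested genes). Dpt was at 7.77 to 14.2 CPM in WT and 1.35 to 2.12 in KO, and Mfap5 at 4.12 to 6.39 and 8.67 to 12.8. Macrophage and leukocyte markers were present in the WT cultures and nearly absent in KO: their sum over 14 genes was 79.7 to 112 CPM in WT and 6.43 to 8.29 in KO, of which Cd68 gave 5.32 to 6.79. The gene Adgre1, a defining macrophage marker, was counted 132, 112, 72 and 88 times in the WT libraries and 0, 0, 0 and 2 times in the KO libraries, and Fcgr1 was at 0 in every KO library. The KO 0 min library stood apart. Its 12 cartilage and bone markers summed to 502 CPM, against 40.4 to 73.8 in the later KO libraries and 23.7 to 29.2 in WT, and its 10 epithelial markers to 15.4 CPM, against 2.47 to 4.37 and 1.07 to 1.29. Muscle markers summed to 11.4 to 14.1 CPM in WT and 24.5 to 42.1 in KO, endothelial markers to 6.19 to 8.95 and 10.0 to 15.8, neural markers to 137 to 169 and 106 to 120.3, and erythroid markers were at 0 in KO and at most 0.216 in WT. Of the neural sum, Map2 alone gave 122 to 155 CPM in WT and 79.9 to 99.3 in KO, while Nes was at 7.37 to 11.2 and 15.0 to 27.8. The late KO calls of the members are also given with another baseline, and the counts of members called between genotypes also without the KO 0 min library. The KO ratios at single times are given only against that library, and so are some values of the pathway lists.

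Promoter sequence is shown for 5 members that the results turn on: Postn, Pdgfra, Col6a2 and Col5a3, which had the smallest p-values of the late WT response and KO against WT, and Tnc, which was added after its values were seen because its late fold change was the highest of the 35 in both genotypes. Each line gives the 250 bases before the transcription start in RefSeq (GRCm38.p6), 5′ to 3′ on the gene's strand. The Pdgfra window ends 41 bases before the start of the gene in the count table. Capitals mark matches to the NF-kB motif, the TATA box and the CCAAT box, whose letters are given after the sequences.
Postn, chr3:54360857-54361106, plus strand: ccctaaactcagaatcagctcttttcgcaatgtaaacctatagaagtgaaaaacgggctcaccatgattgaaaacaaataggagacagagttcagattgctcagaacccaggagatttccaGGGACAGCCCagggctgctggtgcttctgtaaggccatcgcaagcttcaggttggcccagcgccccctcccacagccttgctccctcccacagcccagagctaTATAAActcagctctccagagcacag
Pdgfra, chr5:75152001-75152250, plus strand: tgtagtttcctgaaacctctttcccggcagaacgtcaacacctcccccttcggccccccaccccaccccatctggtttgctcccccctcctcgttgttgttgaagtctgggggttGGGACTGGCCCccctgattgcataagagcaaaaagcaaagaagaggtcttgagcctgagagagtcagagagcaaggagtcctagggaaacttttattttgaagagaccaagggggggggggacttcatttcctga
Col6a2, chr10:76623631-76623880, minus strand: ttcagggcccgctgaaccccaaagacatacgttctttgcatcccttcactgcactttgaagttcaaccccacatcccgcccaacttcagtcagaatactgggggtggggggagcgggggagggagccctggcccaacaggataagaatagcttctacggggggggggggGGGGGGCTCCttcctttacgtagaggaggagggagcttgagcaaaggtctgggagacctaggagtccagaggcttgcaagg
Col5a3, chr9:20815068-20815317, minus strand: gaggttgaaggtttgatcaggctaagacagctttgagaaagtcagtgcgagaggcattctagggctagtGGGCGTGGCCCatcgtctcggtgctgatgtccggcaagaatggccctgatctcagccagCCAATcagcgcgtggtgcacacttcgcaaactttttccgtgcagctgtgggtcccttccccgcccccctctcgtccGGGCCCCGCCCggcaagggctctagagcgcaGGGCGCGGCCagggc
Tnc, chr4:64047016-64047265, minus strand: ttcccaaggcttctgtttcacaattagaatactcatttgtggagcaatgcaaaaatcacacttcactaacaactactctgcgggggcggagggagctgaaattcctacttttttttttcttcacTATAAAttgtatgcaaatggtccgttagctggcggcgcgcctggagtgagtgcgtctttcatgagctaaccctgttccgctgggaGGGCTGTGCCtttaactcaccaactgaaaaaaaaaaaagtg

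Of the 35 genes, 22 had a promoter entry in the RefSeq table. A gene was counted as having a motif if any of its entries matched. The percents are of single promoter sequences, so counts and percents are not like for like where a gene has several entries. The NF-kB motif GGGNNNNNCC, searched on both strands with overlapping matches allowed, was in 16 of these 22 and in 45.8% of 32851 promoters of the same length. It is in all 5 sequences shown: from -129 to -120 in Postn, from -135 to -125 in Pdgfra where 2 matches overlap, from -81 to -72 in Col6a2, from -181 to -171, -46 to -36 and -15 to -6 in Col5a3 and from -41 to -32 in Tnc. The TATA box TATAAA was in 5 of 22 promoters and in 12.4% of all, and it lies from -26 to -21 in Postn and from -126 to -121 in Tnc. The CCAAT box CCAAT was in 7 of 22 and in 33.8% of all, with a match from -122 to -118 in Col5a3. The AP-1 motif TGANTCA was in 1 of 22, Col6a1, and in 6.75% of all, and the CArG box, bound by serum response factor, was in 0 of 22 and in 1.47%. Such matches are descriptions of these letters and do not show binding.

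Per kilobase of exon, most of the 35 genes were among the more abundant chromatin-associated transcripts of these cells. The mean level over the 8 libraries was at or above the 90th percentile of tested genes for 28 of 35. The highest were Col1a1, the main chain of type I collagen, at 374 CPM per kilobase, Fn1 (fibronectin) at 322 and Thbs1 (thrombospondin 1) at 307, each at percentile 99.9. The ranges of these 3 over the libraries overlapped: 278 to 473, 211 to 462 and 222 to 404. The lowest were Col15a1, a basement membrane zone collagen, at 0.572, Col14a1, a collagen on the fibril surface, at 3.23 and the elastic fibre gene Fbln1 at 4.14, at percentiles 16, 57.4 and 65.5. All 3 lay below the other members in the mean, and the range of Col15a1 (0.165 to 1.55) stayed below every other member's.

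**Figure D1:**
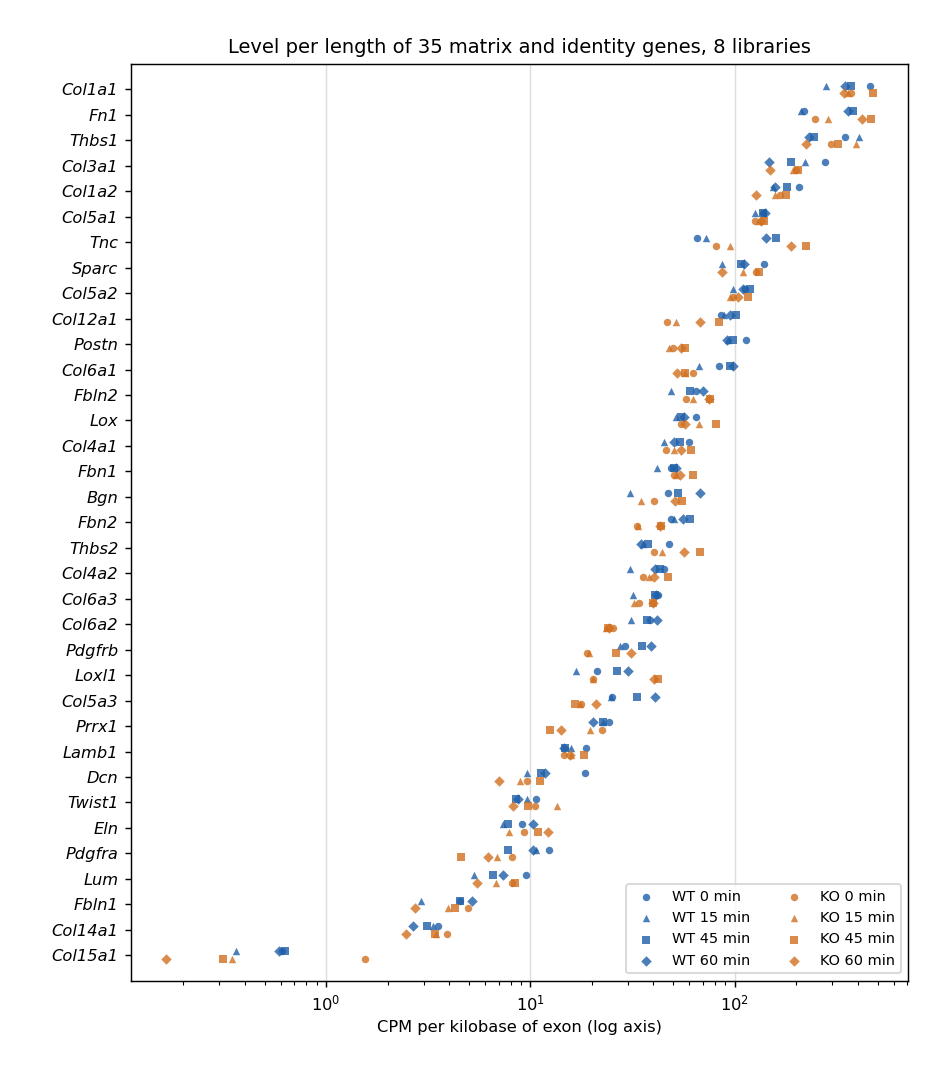
Level of each of the 35 genes in each library, in CPM per kilobase of exon on a log axis, ordered by the mean over 8 libraries. Blue marks WT and orange KO, and the symbol gives the time after TNF. The means run from 374 for Col1a1 down to 0.572 for Col15a1, whose KO 0 min library (1.55) is far higher than its others.

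Most members varied little over the times within a genotype. The highest WT library exceeded the lowest by at most 2.43-fold, for Tnc. In KO the same ratio ran from 1.08-fold for Col6a2 to 9.39-fold for Col15a1, with Tnc next at 2.75-fold.

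In WT cells, the late response (the mean of 45 and 60 min against 0 min) asked which of the genes changed after TNF. Tnc and Fn1 rose, and the other 33 genes were not called. In the late responses the 45 and 60 min libraries of a genotype stand in for replicates, and 0 min has 1 library. The errors and p-values thus rest on how far 45 and 60 min differed, not on repeated cultures. A gene is called when its Benjamini-Hochberg adjusted p over all 15049 tested genes in edgeR's quasi-likelihood test is under 0.05, and the percent of all tested genes called in this comparison was 5.48 (4.17 higher and 1.31 lower). The 2 called members are 5.71% of the 35, close to that background, although the median standard error (SE) was smaller for the members (0.191 against 0.26). The median log2 fold change of the members was -0.04, against 0.00 for all tested genes. Of all tested genes, 628 were called higher and 197 lower. With total counts as the scaling these were 304 and 280, and the median of all genes moved to -0.21 in both genotypes, so values under that scaling are to be read against it.

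Tnc (chromosome 4, 63959785 to 64047015, minus strand, mm10) encodes tenascin C, a matricellular glycoprotein of developing, wounded and inflamed tissue. It stood at 506, 559, 1231 and 1108 CPM in WT at 0, 15, 45 and 60 min, and at 628, 737, 1727 and 1468 CPM in KO. In each genotype both late libraries were above both early ones, and the KO library was above the WT library at every time. The rise was 1.21 ± 0.19 (log2 ± SE, adjusted p = 0.00309, edgeR) in WT and 1.35 ± 0.20 (adjusted p = 0.00559) in KO. At 15 min the log2 ratio to 0 min was smaller, 0.14 (95% interval 0.10 to 0.19, counting error alone) in WT and 0.23 (0.19 to 0.27) in KO. The test of the difference between the responses gave -0.14 with a 95% interval of -0.70 to 0.43. The WT call held in all 17 alternatives of scaling, filter, tool, baseline and left-out library, and the KO call in all but the one with no filter on low counts.

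Fn1 (chromosome 1, 71585520 to 71653200, minus strand) encodes fibronectin, the scaffold on which cells assemble other matrix. Its levels were 2551, 2470, 4437 and 4172 CPM in WT, and 2872, 3324, 5399 and 4902 CPM in KO. As for Tnc, both late libraries were above both early ones in each genotype. The WT rise was 0.75 ± 0.20 (adjusted p = 0.0474, edgeR), and the KO value was 0.84 ± 0.20 with an adjusted p of 0.0532, short of the threshold. About 2.5% of its exonic bases, and 2.26% of those of Tnc, are shared with another gene model. The difference between the responses was -0.09 (95% interval -0.68 to 0.50). Of 17 alternatives 5 ended the WT call. It ended with total counts as the scaling (0.54, adjusted p = 0.168, edgeR) and with total counts without the 3 top gene models (0.65, adjusted p = 0.0602). It also ended with a filter of at least 50 counts (0.72, adjusted p = 0.0566), without the WT 45 min library (0.69) and without the WT 60 min library (0.79). DESeq2 gave the smallest adjusted p, 0.00211.

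**Figure D2:**
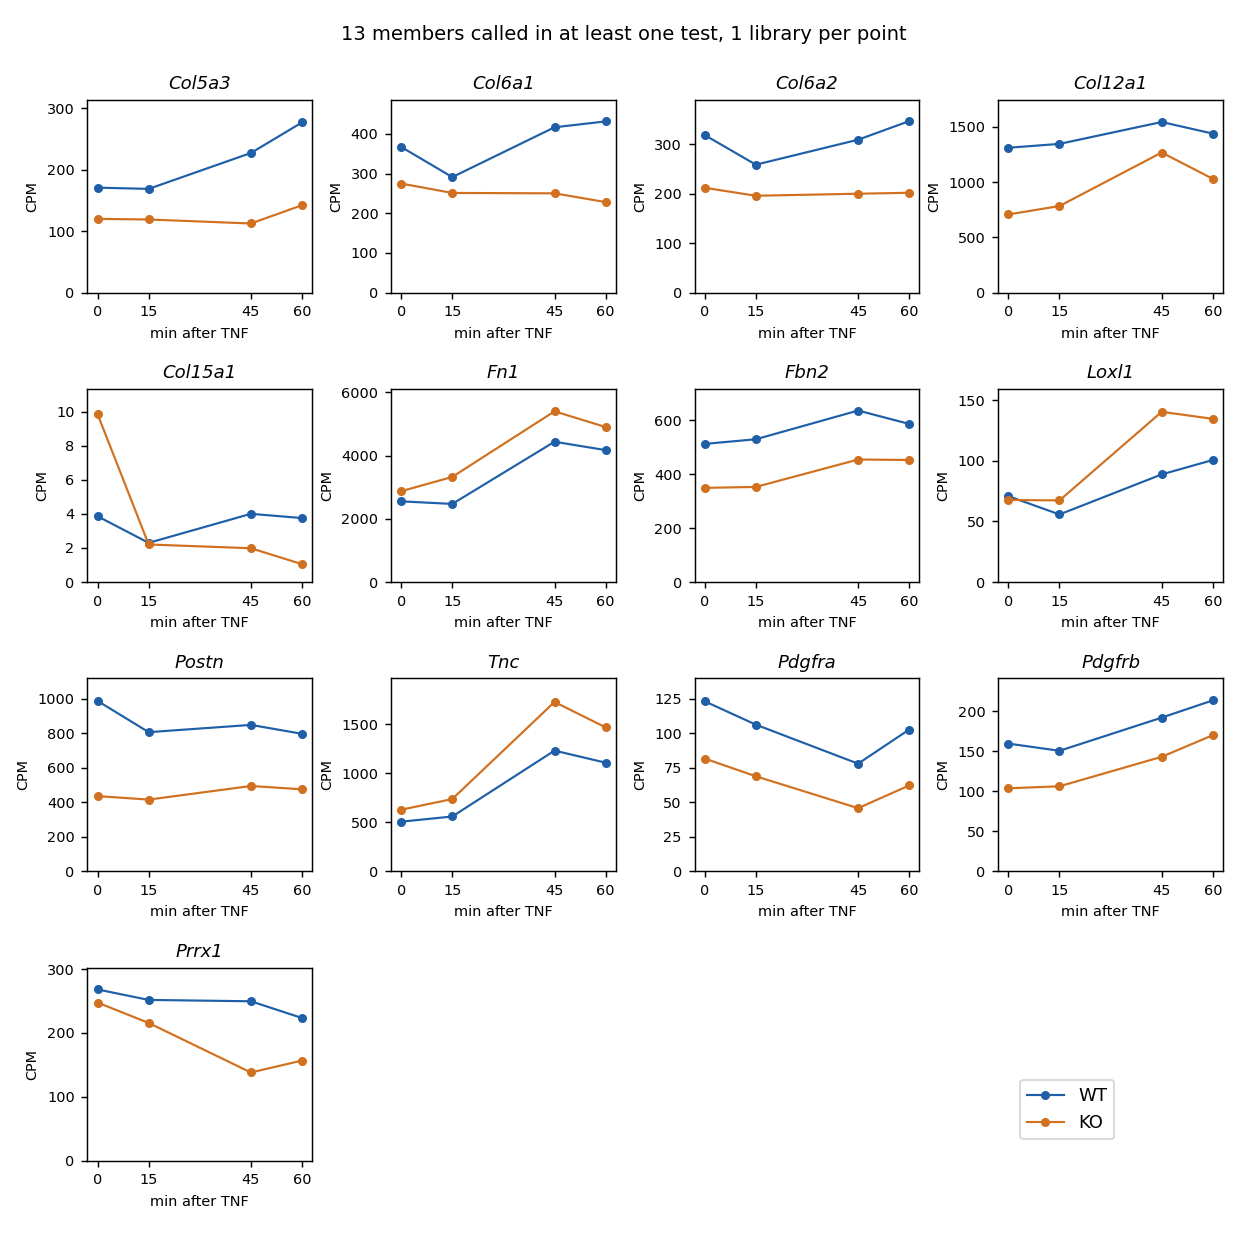
Levels in CPM (linear axis from 0) against minutes after TNF for the 13 members called in at least 1 of the 4 tests, with WT in blue and KO in orange and 1 library per point. Tnc and Fn1 step up between 15 and 45 min in both genotypes, Postn and the 2 type VI collagen genes run lower in KO at every time, and Col15a1 is high in the KO 0 min library alone.

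In KO cells, the same contrast asked what changed after TNF without RelA and cRel. Tnc and Loxl1 rose, and Col15a1 and Prrx1 fell. The percent of all tested genes called in this comparison was 1.83 (1.32 higher and 0.518 lower), and the 4 called members are 11.4% of the 35. The median of the members was 0.15, against -0.01 for all tested genes. The median SE was again smaller for the members (0.193 against 0.259), so the shares called are not like for like. Beyond 1 in absolute log2 value were 3 members and 8.2% of all tested genes. With the KO 15 min library as baseline in place of the KO 0 min library, Tnc (1.11) and Loxl1 (1.03) were still called higher and 0 members lower. Of all tested genes, 198 were called higher and 78 lower, and 57 and 155 with total counts as the scaling.

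Loxl1 (chromosome 9, 58287723 to 58313212, minus strand) encodes a lysyl oxidase that crosslinks elastin. It stood at 67.8, 67.4, 141 and 135 CPM in KO and at 70.9, 55.8, 88.9 and 101 CPM in WT. The late libraries were above the early ones in both genotypes, and the late KO libraries were the highest of the 8. The rise in KO was 1.02 ± 0.17 (adjusted p = 0.0140, edgeR), and the value in WT was 0.42 ± 0.17 (adjusted p = 0.194). The responses were not called different (-0.60, 95% interval -1.12 to -0.09, adjusted p = 0.501). With total counts as the scaling the KO value was 0.82 (adjusted p = 0.203).

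Prrx1 (chromosome 1, 163245119 to 163313710, minus strand) encodes a homeobox transcription factor of limb and craniofacial mesenchyme. Its levels in KO were 247.5, 215.5, 138 and 157 CPM, and in WT 268, 252, 249.5 and 223 CPM. The late KO libraries were the lowest of the 8. The KO change was -0.75 ± 0.17 (adjusted p = 0.0446, edgeR), and the WT value was -0.18 ± 0.17. Of 17 alternatives 5 ended the call in KO. It ended with the 15 min library as baseline (-0.55, adjusted p = 0.162, edgeR) and with total counts as the scaling (-0.94, adjusted p = 0.0538). It also ended with no filter (-0.73, adjusted p = 0.167), without the KO 45 min library (-0.66) and without the KO 60 min library (-0.84).

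Col15a1 (chromosome 4, 47208161 to 47313167, plus strand) encodes a multiplexin collagen that links basement membranes to the tissue beneath. Its counts were 58, 32, 56 and 52 in the WT libraries, against 165, 25, 25 and 14 in the KO libraries. In CPM these are 3.86, 2.30, 4.01 and 3.76 in WT, and 9.86, 2.21, 1.99 and 1.05 in KO. A single library, KO at 0 min, stood above the other 7. The KO change was -2.70 ± 0.33 (adjusted p = 0.00308, edgeR), against 0.01 ± 0.34 in WT, and the difference between the responses was 2.71 ± 0.49 (adjusted p = 0.0297). It was the only member called in the test of the difference, where 0.498% of all tested genes were called (0.492% with the larger value in WT and 0.00664% with the larger in KO). With the 15 min library as baseline the KO value was -0.55 (adjusted p = 0.616) and the difference 1.30 (adjusted p = 0.867). The KO 0 min library is also the one with the high cartilage, bone and epithelial markers, such as Col2a1 with 5219 counts against 91, 114 and 389 in the later KO libraries. Their part in the result was not tested. Without the KO 60 min library the difference was 2.31 with an adjusted p of 0.0786.

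The other 34 members were not called in the difference. The difference of WT minus KO was below 0 for 27 of 35 genes, with a median of -0.17. The lowest was that of Thbs2 (thrombospondin 2), with 281, 211, 222.5 and 205 CPM in WT and 239.5, 261, 398 and 336 CPM in KO and a difference of -1.01 ± 0.25 (adjusted p = 0.129). The value of Thbs2 stayed below 0 in all 16 alternatives (-1.13 to -0.47). The balance of signs over the members turned with the baseline: with the 15 min library as baseline, 11 of 35 were below 0 and the median was 0.11.

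**Figure D3:**
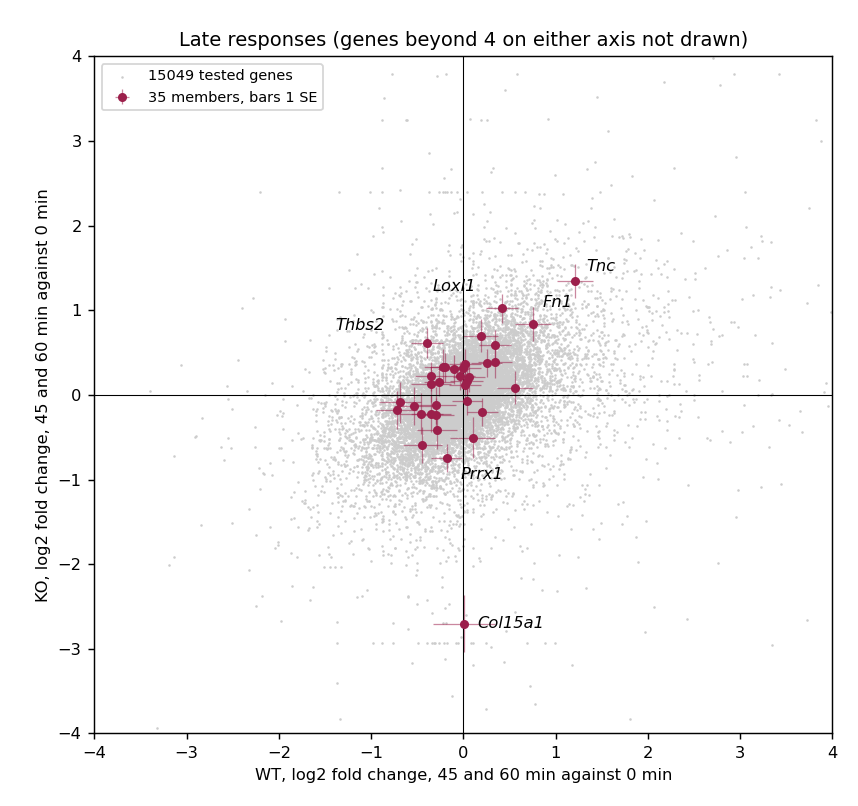
Late log2 fold change in KO (vertical) against that in WT (horizontal) for the 15049 tested genes (grey) and the 35 members (dark red, bars 1 SE). Tnc and Fn1 lie high on both axes, Loxl1 at 1.02 in KO and 0.42 in WT, and Col15a1 at -2.70 in KO and 0.01 in WT.

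The single times show when the members moved, as ratios of 1 library to another with intervals that cover counting error alone. At 15 min in WT, 27 of 35 members had an interval below 0 and 4 above, with a median log2 ratio of -0.30 (0.00 for all tested genes), while 10.7% of all tested genes were below and 14.6% above. The small leucine-rich proteoglycan genes Dcn (decorin) and Lum (lumican) were lowest, at -0.95 (95% interval -1.16 to -0.74) and -0.86 (95% interval -1.15 to -0.57), and Col1a1 was at -0.72 (95% interval -0.74 to -0.69). In KO at 15 min, 15 were below 0 and 12 above (7.56% and 9.97% of all tested genes), with a median of -0.04. Each of these is a comparison of 1 library with another and has no replicate. The intervals narrow as counts rise, and 28 of 35 members were at or above the 90th percentile of level. Small ratios of the members therefore exclude 0 more readily. Here and below, the shares of members and of all tested genes are not like for like. All KO ratios at single times, also those below, are against the KO 0 min library with the high cartilage, bone and epithelial markers.

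At 45 min, 10 members were above and 17 below 0 in WT, and 24 and 5 in KO. The shares of all tested genes above and below were 20.2% and 16.9% in WT and 19.1% and 18.0% in KO. At 60 min, 13 were above and 17 below in WT (21.5% and 18.1% of all tested genes), and 19 and 14 in KO (21.0% and 18.6%). Few members passed 2-fold. Tnc did so in WT at 45 min (1.28) and 60 min (1.13), where 4.13% and 5.01% of all tested genes were past 2-fold higher (2.84% and 3.35% lower), and in KO at both times (1.46 and 1.22), where 2.58% and 3.02% were. Loxl1 did so in KO at 45 min (1.05). Col15a1 was past 2-fold lower in KO at 15, 45 and 60 min (-2.16, -2.31 and -3.23), against 1.15%, 2.78% and 3.22% of all tested genes (0.585% were higher at 15 min), and 0 members were past 2-fold at 15 min in WT (0.857% of all tested genes were higher and 1.19% lower).

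**Figure D4:**
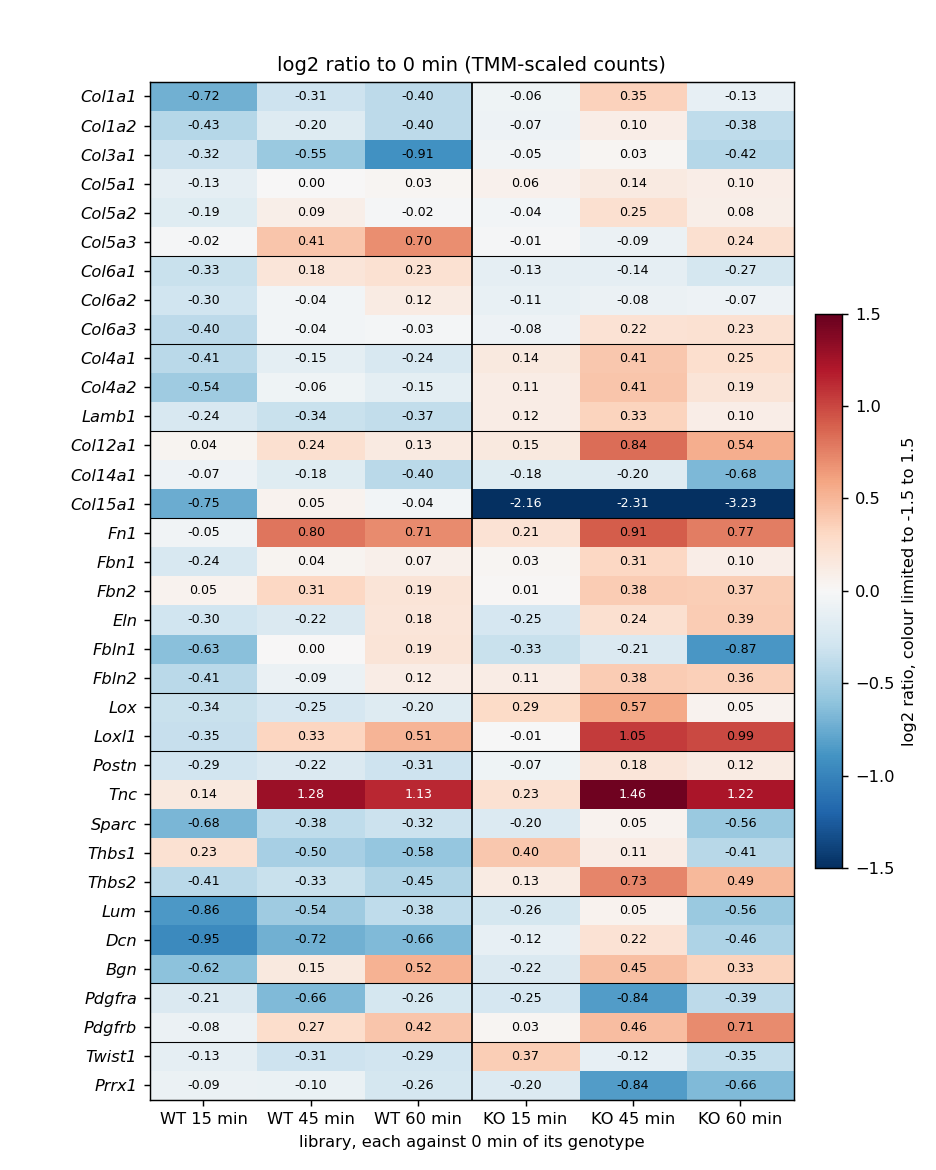
Log2 ratio of each library to 0 min of its genotype for the 35 genes, grouped by role, with the value printed in each cell (red above 0, blue below, colour limited to -1.5 to 1.5). The WT 15 min column is mostly blue (27 of 35 intervals below 0) and the KO 45 min column mostly red (24 of 35 above 0).

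By role, none of the fibrillar collagen genes was called in either late response. Col1a1 stood at 3003, 1827, 2429 and 2282 CPM in WT and 2439, 2342, 3101 and 2234 CPM in KO, and its late change was -0.35 (95% interval -0.82 to 0.12) in WT and 0.13 (-0.34 to 0.60) in KO. Col3a1, which partners type I collagen in distensible tissue, was at 2703, 2163, 1841 and 1438 CPM in WT and at 1947, 1883, 1992 and 1451 CPM in KO. The WT series was highest at 0 min and lowest at 60 min, with a late change of -0.72 ± 0.22 (adjusted p = 0.0875, edgeR), not called. It was called lower with total counts as the scaling, and also when the WT library at 45 min, or the KO library at either late time, was left out. Thbs1, which encodes a matricellular activator of latent TGF-beta, was at 2095, 2454, 1482 and 1403 CPM in WT and 1799, 2375, 1938 and 1350 CPM in KO. It was highest at 15 min in both genotypes, and its late change in WT was -0.54 (95% interval -1.01 to -0.07, adjusted p = 0.193).

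The basement membrane genes Col4a1 and Col4a2 (chromosome 8, 11198423 to 11312826, minus strand, and 11312805 to 11449287, plus strand) lie head to head and share 22 bases. Their log2 ratios to 0 min were -0.41, -0.15 and -0.24 for Col4a1 and -0.54, -0.06 and -0.15 for Col4a2 in WT. In KO they were 0.14, 0.41 and 0.25, and 0.11, 0.41 and 0.19. The 2 genes thus had the same sign in each of the 6 libraries, and none of their changes was called. The 2 lowest members after Col15a1 were also not called: Col14a1 was at 24.7, 23.5, 21.8 and 18.7 CPM in WT and 27.4, 24.2, 23.9 and 17.2 CPM in KO, and Fbln1 at 19.8, 12.8, 19.8 and 22.6 CPM in WT and 21.7, 17.2, 18.7 and 11.85 CPM in KO. For both, the KO 60 min library was the lowest of the 8. The other members that were called in neither late response had late changes between -0.69 (Dcn) and 0.56 (Col5a3) in WT and between -0.60 (Pdgfra) and 0.70 (Col12a1) in KO.

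The largest number of calls among the members was between the genotypes. Over the 4 times, 9 of 35 were lower in KO and 2 were higher, which is 31.4% of the members, against 16.3% of all tested genes (9.44% lower and 6.81% higher). The median of the members was -0.03, against 0.01 for all tested genes. The members were measured with smaller error (median SE 0.098, against 0.141 for all tested genes), so the shares called are not like for like. Beyond 1 in absolute log2 value were 0 members and 6.83% of all tested genes. The lower genes were Postn, Pdgfra, Pdgfrb, Col5a3, Col6a1, Col6a2, Col12a1, Fbn2 and Prrx1, and the higher ones Tnc and Fn1. For each of these 11 the KO library was on the same side of the WT library at all 4 times. The test favours genes whose difference is steady over the times, so this adds no support to the calls. Of all 35 members, called or not, KO was lower at all 4 times in 11 and higher in 4, and 20 were mixed. The share over all tested genes was not computed. Of all tested genes, 1025 were called higher and 1421 lower in KO, and 477 and 2898 with total counts as the scaling, which moved the median of all genes to -0.17. The test takes the 4 times as blocks, so its p-values rest on how far the KO to WT difference varied from time to time, not between cultures. In bulk samples, fewer cells of a type and less RNA per cell cannot be told apart. The macrophage and leukocyte markers above differed between the same groups, with 12 of 13 tested markers lower in KO (median log2 -5.98), as did cartilage and bone markers, with 6 of 8 higher. Their part in the genotype differences was not tested. Without the KO 0 min library the counts were 9 lower and 4 higher.

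Postn (chromosome 3, 54361109 to 54391037, plus strand) encodes periostin, a matricellular protein that promotes collagen assembly. It stood at 988, 807, 849 and 797 CPM in WT and at 436, 416, 495 and 476 CPM in KO. The highest KO library was below the lowest WT library. The difference was -0.91 ± 0.09 (adjusted p = 9.63e-05, edgeR), the lowest of the 35, and it ranged from -1.10 to -0.77 over the 20 alternatives, with the call kept in each.

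Of the type VI collagen chains, which form beaded microfilaments around cells, those of Col6a1 and Col6a2 were lower in KO. Both genes are on chromosome 10 (76708792 to 76726168 and 76595762 to 76623630, both minus strand). Col6a1 was at 367, 291, 416.5 and 431 CPM in WT and at 275, 251, 250.2 and 228 CPM in KO. Col6a2 was at 319, 259, 309 and 347 CPM in WT and at 212, 196, 200.1 and 202 CPM in KO. Neither gene's genotypes overlapped. The differences were -0.57 ± 0.11 (adjusted p = 0.00604, edgeR) and -0.60 ± 0.08 (adjusted p = 0.000674). Col6a3, the third chain, on chromosome 1, was not called, at -0.09 with a 95% interval of -0.26 to 0.08.

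Among the fibrillar collagens the type V chains, which set fibril diameter, divided in the same way. Col5a3 (chromosome 9, 20770050 to 20815067, minus strand) was at 171, 169, 227 and 277 CPM in WT and at 120.1, 119, 113 and 142 CPM in KO, without overlap. Its difference was -0.75 ± 0.10 (adjusted p = 0.000835, edgeR), wider at 45 and 60 min (-1.01 and -0.96) than at 0 and 15 min (-0.51 and -0.50). The late responses of Col5a3 were not called different (WT minus KO 0.48, 95% interval -0.12 to 1.07, adjusted p = 0.788). Col5a1 and Col5a2 were not called, at -0.03 (95% interval -0.19 to 0.13) and -0.09 (95% interval -0.24 to 0.06). For Col1a1, Col1a2 and Col3a1 the values were 0.10, -0.14 and -0.14, also not called.

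Col12a1 (chromosome 9, 79598991 to 79718831, minus strand), a collagen attached to fibril surfaces, was at 1311, 1346, 1544 and 1439 CPM in WT and at 708, 784, 1268 and 1030.0 CPM in KO. The genotypes did not overlap, and the KO libraries came nearest to WT at 45 min. The difference was -0.61 ± 0.10 (adjusted p = 0.00284, edgeR). Fbn2 (chromosome 18, 58008623 to 58209926, minus strand), a fibrillin of embryonic microfibrils, was at 512, 529, 635.5 and 586 CPM in WT and at 349, 352, 454 and 452 CPM in KO, again without overlap. Its difference was -0.50 ± 0.07 (adjusted p = 0.00106, edgeR). The related Fbn1 was at 0.18 (95% interval 0.01 to 0.35, adjusted p = 0.142), and 20.14% of its exonic bases are shared with the antisense model Gm9913. Whether the counting used strand is not stated, so reads of that pair may not be separated.

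The genotypes did not overlap in 6 of the 35 members (Col5a3, Col6a1, Col6a2, Col12a1, Fbn2 and Postn), in each with KO lower. The percent of all tested genes without overlap was 13.6 (7.75 with KO lower and 5.84 with KO higher).

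Both PDGF receptor genes, whose products drive fibroblast growth and migration, were lower in KO. Pdgfra (chromosome 5, 75152292 to 75198215, plus strand) was at 123, 106, 78.0 and 103 CPM in WT and at 81.7, 68.8, 45.7 and 62.2 CPM in KO. About 6.5% of its exonic bases are shared with other gene models, whose reads may not be separated. At each time KO was lower, although the KO 0 min library lay above the WT 45 min library. The difference was -0.68 ± 0.07 (adjusted p = 0.000212, edgeR). Pdgfrb (chromosome 18, 61045150 to 61085061, plus strand) was at 159, 150.4, 192 and 213 CPM in WT and at 104, 106, 143 and 169.9 CPM in KO. The difference was -0.47 ± 0.08 (adjusted p = 0.00228, edgeR). Without time as a block neither was called (adjusted p = 0.0518 and 0.169), nor was Col12a1 (adjusted p = 0.0708).

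Prrx1 was lower in KO by -0.42 ± 0.11 (log2, adjusted p = 0.0290, edgeR), with -0.11 at 0 min and -0.85 at 45 min. Its late responses were not called different (WT minus KO 0.57, 95% interval 0.04 to 1.09, adjusted p = 0.591). Of 20 alternatives 6 ended the call. Among these were the omission of WT at 45 min, WT at 60 min, KO at 45 min or KO at 60 min (adjusted p = 0.131, 0.0745, 0.145 and 0.0883). Twist1, the other transcription factor, was not called, at 0.15 (95% interval -0.11 to 0.40).

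Tnc and Fn1 were higher in KO, by 0.40 ± 0.07 (adjusted p = 0.00357, edgeR) and 0.28 ± 0.08 (adjusted p = 0.0325). With total counts as the scaling both calls ended (0.22, adjusted p = 0.104, and 0.10, adjusted p = 0.493), while 13 members were called lower. For Fn1, 8 of 20 alternatives ended the call, and these included the omission of WT at 15, 45 or 60 min or of KO at 15 or 45 min (adjusted p = 0.206, 0.14, 0.0619, 0.197 and 0.122). Of the members not called, Thbs2 (0.41 ± 0.15), Loxl1 (0.32 ± 0.11) and Dcn (-0.46 ± 0.15) lay farthest from 0, with adjusted p of 0.0910, 0.0686 and 0.0665. The other members not called had values from -0.14 to 0.21.

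**Figure D5:**
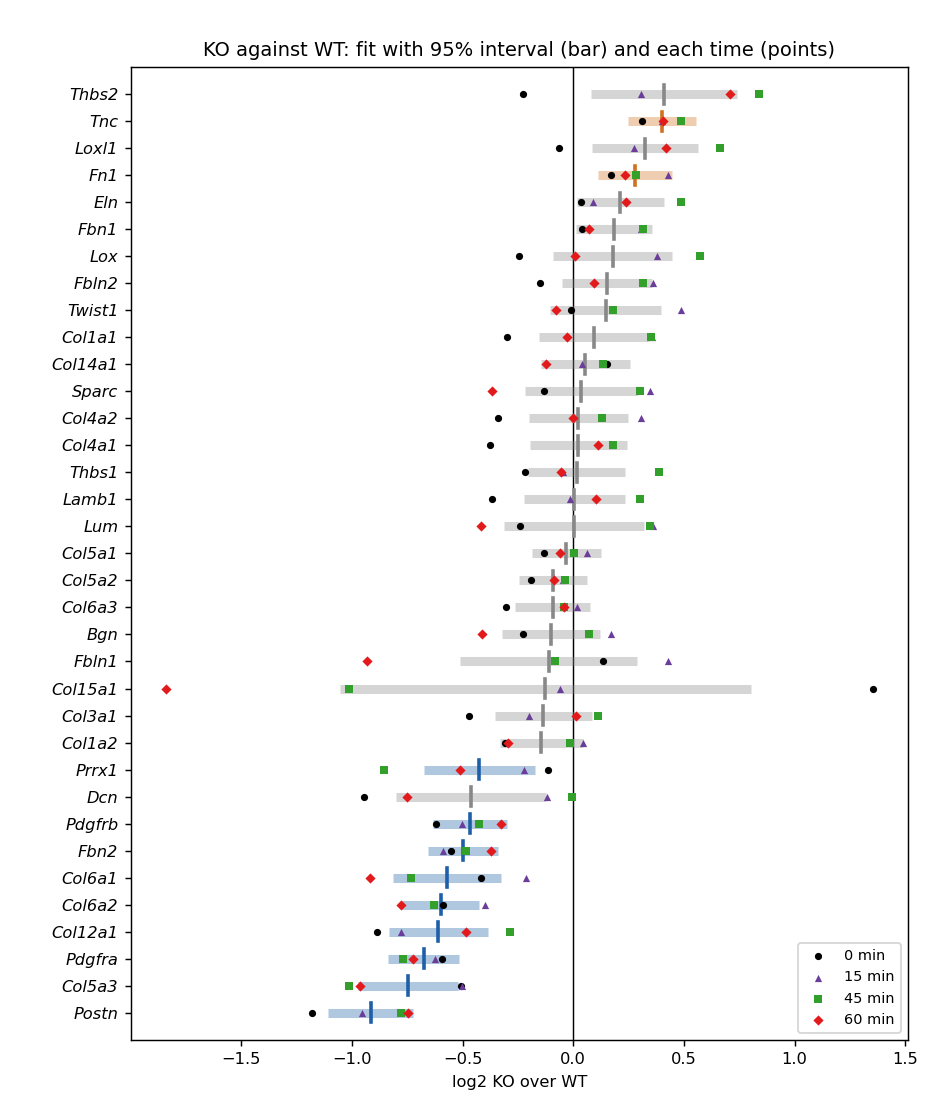
Log2 of KO over WT for the 35 genes, with the fitted value (vertical tick) and its 95% interval (bar) in blue where called lower, orange where called higher and grey where not called, and the ratio at each time as points. Postn is lowest at -0.91, and Col15a1 has the widest bar (-1.06 to 0.80), with its 0 min point at 1.35 and its 60 min point at -1.84.

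Genes that make, modify or receive the same matrix were counted from pathway lists, with at most 4 called genes named in each. For comparison, 4.17% of all tested genes were called higher and 1.31% lower in the late WT response. The shares were 1.32% and 0.518% in the late KO response, and 6.81% and 9.44% in KO against WT. In the difference between responses 0.498% were called. Of 19 tested genes of collagen modification and folding, 1 was called in the late WT response (higher), 0 in the late KO response, and 4 were higher and 1 lower in KO against WT. The lysyl hydroxylase genes Plod1 and Plod2 (0.49 ± 0.09 and 0.57 ± 0.10) and the prolyl hydroxylase gene P4ha1 (0.47 ± 0.08) were among the higher, and P4ha3, of the same family, was the lower one (-0.75 ± 0.09, adjusted p = 0.000541, edgeR). Of 11 genes of procollagen cleavage and crosslinking, 1 rose in WT, 0 were called in KO and 1 was higher in KO against WT. The procollagen protease gene Adamts3 was counted 27, 26, 20 and 17 times in the WT libraries and 145, 111, 111 and 96 times in the KO libraries (2.44 ± 0.15, adjusted p = 9.44e-06, edgeR).

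Of 16 other collagen chains, 2 rose in WT, 1 fell in KO, and 6 were lower and 0 higher in KO against WT. The anchoring fibril collagen Col7a1 was among both the former and the latter: it was at 86.1, 95.3, 149 and 183 CPM in WT and at 50.5, 55.9, 57.6 and 58.6 CPM in KO. It rose in WT by 0.94 ± 0.18 (adjusted p = 0.00907, edgeR; 0.205 with total counts as the scaling) and was lower in KO by -1.14 ± 0.14 (adjusted p = 0.000448). The basement membrane chains Col18a1 and Col4a5 were lower in KO, by -0.89 ± 0.10 and -0.62 ± 0.07. Col22a1 fell in KO (-2.79 ± 0.43), with 68 counts in the KO 0 min library and 6 to 9 in the later ones, and with the 15 min baseline it was at -0.09.

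Of 36 other matrix glycoproteins and proteoglycans, 3 rose and 1 fell in WT, 1 rose and 1 fell in KO, and 6 were lower and 6 higher in KO against WT. The laminin gene Lama4 (-0.93 ± 0.07), the basement membrane proteoglycan gene Agrn (-1.60 ± 0.15) and Aspn, a relative of decorin (-1.38 ± 0.18), were among the lower. Spon1 fell in KO (-3.56 ± 0.52), with 55 counts at 0 min and 3 to 5 later, and with the 15 min baseline it was at -0.69 (adjusted p = 0.755, edgeR). Of 18 integrin and discoidin receptors of matrix, 3 rose in WT, 0 were called in KO, and 6 were lower and 2 higher in KO against WT. Ddr1, a collagen receptor kinase, was at 39.2, 38.7, 103 and 114 CPM in WT and at 32.8, 34.2, 39.8 and 48.1 CPM in KO, and rose in WT by 1.47 ± 0.19 (adjusted p = 0.000694, edgeR). Itga2, an integrin receptor of collagen, was counted 2, 2, 25 and 51 times in the WT libraries and 8, 3, 10 and 7 times in the KO libraries, and rose in WT by 4.27 ± 0.82. The integrin genes Itga4 and Itga11 were lower in KO (-0.94 ± 0.11 and -0.65 ± 0.08).

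TGF-beta signalling, a main driver of matrix genes, was counted over 12 genes: 3 rose in WT, 3 rose in KO, and 3 were higher and 2 lower in KO against WT. Tgfb1 was at 8.93, 9.78, 25.7 and 28.0 CPM in WT and at 5.98, 5.65, 15.96 and 16.9 CPM in KO, a rise of 1.59 ± 0.21 and 1.46 ± 0.22, of which the latter was not called with total counts as the scaling (1.26, adjusted p = 0.0564, edgeR). The feedback inhibitor gene Smad7 rose by 1.78 ± 0.22 and 1.47 ± 0.21. Tgfb3 was higher in KO (0.95 ± 0.12), and Tgfb1 and the receptor gene Tgfbr1 were lower (-0.70 ± 0.10 and -0.66 ± 0.09). Of 10 PDGF ligands and FGF receptors, 1 rose in WT, 1 fell in KO, and 2 were higher and 1 lower in KO against WT. Pdgfb, a ligand of the PDGF receptors, was the lower one, counted 28, 18, 60 and 80 times in the WT libraries and 2, 1, 5 and 8 times in the KO libraries (-3.44 ± 0.28, adjusted p = 4.08e-05, edgeR), and Pdgfc was among the higher (0.72 ± 0.12). Of 19 other mesenchymal transcription factor genes, 2 rose and 4 fell in WT, 3 rose in KO, and 5 were higher and 4 lower in KO against WT. Twist2 and Zeb2 were lower in KO (-1.05 ± 0.11 and -0.92 ± 0.08), beside the macrophage markers that were lower in the same libraries and whose part was not tested. Twist2 also rose in WT (0.81 ± 0.19), a call that 6 of 17 alternatives ended, such as the 15 min baseline (0.33, adjusted p = 0.393, edgeR) and the omission of WT at 60 min (0.62, adjusted p = 0.137). Osr1 and Osr2 fell in WT (-1.74 ± 0.20 and -2.63 ± 0.35). In the test of the difference between responses, 1 gene of the crosslinking list and 1 of the PDGF and FGF receptor list were called, and 0 of the other 6 lists.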

How the data were processed

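The authors deposited exonic read counts per gene for 8 libraries of chromatin-associated RNA, made with a stranded, ribosomal RNA-depleted kit and single-end reads, per the labels' protocols. The submitters' processing notes name cutadapt 1.12, STAR, featureCounts 1.5.0, DESeq2 and mm10. For strand, multimapping reads and annotation release, the settings were not stated. The deposited table also gives a gene length. Symbols and positions came from GENCODE vM21, and 98.77% of gene rows had a symbol.

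The 15049 genes that reached 10 counts in 2 or more libraries were fitted with edgeR 4.0.16 (quasi-likelihood F test, TMM scaling, Benjamini-Hochberg adjustment over those genes, threshold 0.05) in R 4.3.3. Late responses used 6 means, with 15 min apart and 45 and 60 min pooled, which leaves 2 residual degrees of freedom. KO against WT used time as a block and 3. CPM uses TMM library sizes. Ratios at single times carry exact Clopper-Pearson 95% intervals that cover counting error only, since PCR reads are not independent molecules, and a member past 2-fold needed 20 counts. The p-values measure only the spread between these libraries, which may be technical or a change over time. In the late responses it is the spread between 45 and 60 min within a genotype, since 0 and 15 min have 1 library each. Alternatives were RLE and total-count scaling, other filters, DESeq2 1.42.0, limma-voom 3.58.1, other baselines or times, and each library left out.

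The members and lists were chosen with earlier results of these data known. Members were described in full if called in any of the 4 tests, past 2-fold at a single time, or among the 3 highest or 3 lowest per length. Of each pathway list, the 4 called genes of smallest p at most were named. Promoters were shown for the 4 members of smallest p in the late WT response or KO against WT, and for Tnc.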

Additional observations from a re-analysis of the deposited data

Results flagged for a closer look

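The late response differed between the genotypes, by edgeR's test of the difference itself, for 1 of the 35 genes and for 2 genes of the pathway lists. For Col15a1 the late WT response minus the late KO response was 2.71 on the log2 scale (adjusted p = 0.0297), with 165 counts in the KO 0 min library and 14 to 25 in the later KO libraries. Of 16 alternatives 5 ended the Col15a1 call, among them DESeq2 (2.71, adjusted p = 0.293). Loxl4, a lysyl oxidase of the crosslinking list, was counted 71, 56, 248 and 220 times in the WT libraries and 122, 55, 70 and 63 times in the KO libraries. Its difference was 2.33 (adjusted p = 0.0102), and from 1.98 to 2.45 over the alternatives, of which 2 of 16 ended the call. Fgfr3, a growth factor receptor, was counted 17, 24, 30 and 45 times in the WT libraries and 117, 21, 16 and 32 times in the KO libraries. Its difference was 3.16 (adjusted p = 0.0473), and from 0.65 to 3.70 over the alternatives. Of 15 alternatives 6 ended the Fgfr3 call, among them DESeq2 (3.18, adjusted p = 0.337) and limma-voom (3.16, adjusted p = 0.0716). With the 15 min library as baseline none of the 3 was called: the difference was 1.30 for Col15a1 (adjusted p = 0.867, edgeR), 1.98 for Loxl4 (adjusted p = 0.0857) and 0.65 for Fgfr3.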

How the results depend on the processing

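With total counts as the scaling, the late WT response had 1 member called higher and 2 lower, the late KO response 1 and 1, and KO against WT 0 higher. With total counts without the 3 top gene models the late WT response had 1 higher and 1 lower, and with at least 50 counts 1 higher. With no filter the late KO response had 0 higher and 0 lower, the difference 0, and KO against WT 4 higher. DESeq2 called 4 higher and 1 lower in the late KO response, where Col15a1 had no adjusted p, and 0 in the difference. With the 15 min baseline 4 rose in WT, 0 fell in KO and 0 differed, and with the 0 and 15 min baseline 5 rose and 1 fell in WT, 6 rose in KO and 0 differed. KO against WT had 0 higher and 5 lower without the time block, 5 higher over 45 and 60 min, and 4 higher over 15, 45 and 60 min.

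Leaving out 1 library gave 1 to 2 members higher and 0 to 2 lower in the late WT response, 1 to 2 lower in the late KO response, 0 to 1 in the difference, and 1 to 4 higher in KO against WT. The late WT count of higher members was 1 without WT 45 or WT 60 min, and its lower count was 1 without WT 45 min and 2 without KO 45 or KO 60 min. The late KO lower count was 1 without KO 45 or KO 60 min, and the difference was 0 without KO 60 min. KO against WT had 4 higher without either 0 min library and 1 without WT 15, WT 45, WT 60, KO 15 or KO 45 min.

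At single times, total counts gave 5 members past 2-fold lower in WT at 15 min, 0 higher and 1 lower in WT at 60 min, and 1 higher and 3 lower in KO at 45 min. A fold of 1.5 gave 7 lower in WT at 15 min, 2 higher and 2 lower in WT at 45 min, 3 and 2 in WT at 60 min, 5 and 3 in KO at 45 min, and 4 and 4 in KO at 60 min. Of the counts of members, 121 others stayed within 1.5 times, and of the values of named genes that were called, 955 kept direction and side of the threshold, 82 kept direction only and 0 reversed. Values of members not called could change sign, as for Col1a1 in the late WT response (-0.56 to 0.37) and Dcn (-0.90 to 0.26). The causes were not tested.

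No paired analysis was possible because the labels carry no replicate numbers to pair by, and time was the only block. Among the 35 genes Col15a1 had the fewest counts, 14 to 165.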
